A study of Danio rerio with 3 samples.

Results

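Notch signalling passes between touching cells. A Delta or Jagged ligand on one cell binds a Notch receptor on its neighbour, the receptor is cut, and its freed intracellular domain joins the DNA-binding factor Rbpj and the co-activator Mastermind-like to switch on target genes. Many of those targets are Hairy-related basic helix-loop-helix repressors of the her, hes and hey families. In the zebrafish embryo the pathway is known for holding back neuron formation in the neural plate and for keeping the segmentation clock of the presomitic mesoderm in step between cells.

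The genes described here were chosen by symbol alone, from the notch, Delta, jag, her, hes, hey, mib, fringe, rbpj, maml, numb, nrarp and dtx families. They number 55 of the 35117 genes in the table. By role, 9 are ligands, 4 receptors, 25 Hairy-related repressors and 17 modulators or nuclear factors. The symbol pattern also took in mibp and mibp2, which are not known as Notch pathway genes (the current symbol paired with mibp2 is NMRK2, a nicotinamide riboside kinase), so 53 members fit the name of the group.

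Whole embryos of a wild-type cross, with no treatment, were taken for RNA at 10 hours and at 6 hours after fertilization (hpf), near the end and the start of gastrulation. The 10 hpf group has 2 libraries and the 6 hpf group 1 library. Each gene has a single RPKM value per stage (reads scaled by gene length and sequencing depth), and the column header gives the 10 hpf value as that of 2 replicates, so no spread between replicates stands behind any value. Steps between low values correspond to totals of 23243207 reads at 10 hpf and 16991533 reads at 6 hpf. Whether the 10 hpf total is that of both libraries or of 1 could not be told from the values. The fewest whole reads that could give both values of a gene were worked out from these totals, and the 95% intervals below are exact counting intervals from those fewest reads. They cover counting error only, not differences between embryos or libraries.

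Markers of the tissues of a gastrula were detected at both stages. The 7 neural plate markers summed to 431 RPKM at 10 hpf and 422 RPKM at 6 hpf, the 5 presomitic and paraxial mesoderm markers to 323 and 194 RPKM, and the 3 enveloping layer markers to 3835 and 2410 RPKM. Within the neural plate list most of the sum came from sox19a, sox3, zic2a and sox2, of which sox3 was called lower (97.1 and 134 RPKM). The genes neurog1 (30.3 and 0.0422 RPKM), pax2a (16.0 and 0.298 RPKM) and elavl3 (4.64 and 0.178 RPKM) were called higher at 10 hpf. The 3 yolk syncytial layer markers summed to 186 RPKM at 10 hpf and 3.79 RPKM at 6 hpf, the 4 axial mesoderm markers to 177 and 344 RPKM, and the 3 endoderm markers to 52.1 and 76.1 RPKM. Some markers went against the sum of their list. Called lower in lists with a higher sum were tbx16 (34.4 and 123 RPKM), cldne (86.6 and 267 RPKM) and mxtx2 (0.162 and 1.02 RPKM). In lists with a lower sum, shha was called higher (5.28 and 1.54 RPKM). The endoderm genes foxa2 (30.6 and 12.7 RPKM) and sox17 (11.2 and 4.09 RPKM) were also higher at 10 hpf, without a call. The 3 maternal transcripts summed to 3.12 RPKM at 10 hpf and 30.9 RPKM at 6 hpf. Of the markers in these lists, 0 were listed at 0 at either stage. In whole embryos, more cells of a type and more RNA per cell cannot be told apart, and the part of changing tissue make-up in the results below was not tested.

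Hairy-related repressors were the role with the most higher calls at 10 hpf, while the components that receive and transmit the signal were mostly not called. The repressors were chosen by symbol and are not all activated by Notch, so their calls do not measure Notch activity. Calls are those of the authors' deposited table at a false discovery rate (empirical) under 0.05, with the direction taken from its log2 fold. Of the 55 members, 20 (36.4%) were called higher at 10 hpf, and 9.70% of all genes were. A further 4 (7.27%) were called lower, and 19.8% of all genes were. Among genes that reach 1 RPKM at either stage the background is 16.3% higher and 32.9% lower, and 45 members reach that level. By role, 14 of 25 repressors, 4 of 9 ligands, 1 of 4 receptors and 1 of 17 modulators or nuclear factors (mibp2) were called higher. Of the 14 repressor calls, 7 are the her4 and her15 copies (described below), which may share reads and are not independent. The larger share of higher calls in repressors than in ligands rests largely on counting each copy as a gene. The lower calls were 1 repressor and 3 modulators. After the folds had been centred on the median gene, 2 of the 55 members were still called lower, against 13.4% of all genes and 22.8% of those at 1 RPKM or more. That is 2 of the 4 lower calls among members, and 4718 of 6946 among all genes. By a 2-fold RPKM ratio after adding 1 RPKM to each value, 21 members were higher, against 11.0% of all genes and 22.1% of those at 1 RPKM or more. By the same ratio 1 member was lower, against 9.37% and 18.8%.

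**Figure D1:**
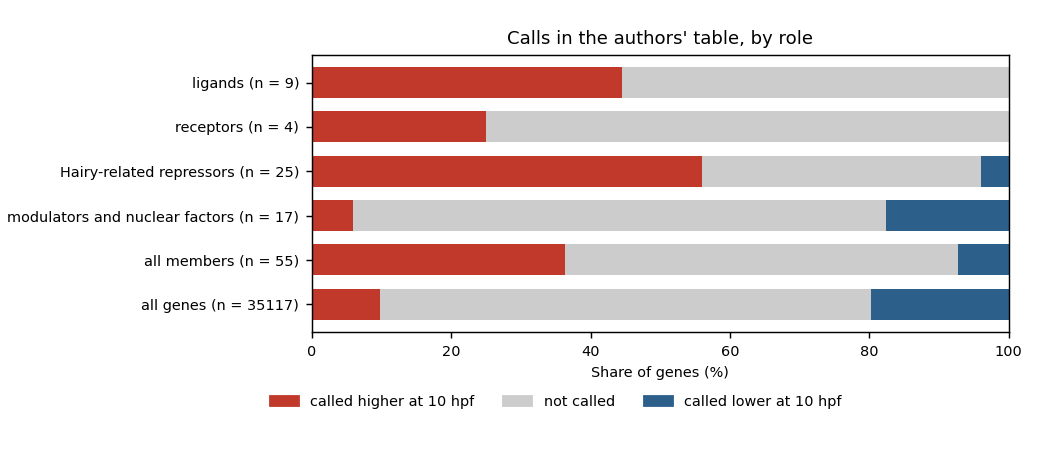
Share of genes (%, horizontal axis) called higher at 10 hpf, not called or called lower at 10 hpf in the authors' deposited table, for each role, all 55 members and all 35117 genes. Higher calls make up 36.4% of members and 56.0% of repressors, against 9.70% of all genes. The repressor share counts each of the 7 her4 and her15 copies as a gene.

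The median log2 RPKM ratio of 10 hpf over 6 hpf, with 1 RPKM added to each value, was 2.44 over the 20 repressors at 1 RPKM or more, 1.69 over 6 ligands, 0.92 over 4 receptors and −0.05 over 15 modulators and nuclear factors. The repressor median counts each her4 and her15 copy as a gene. Over all 17494 genes at that level the median was 0.14. Without the level minimum the medians were 1.86, 0.96, 0.92 and 0 for these roles and 0 for all genes. The fold in the authors' deposited table sits on another scale: it lies 0.61 below the log2 RPKM ratio in the 20 members with at least 5 RPKM at both stages, and its median over all genes at 1 RPKM or more is −0.41. That offset moves the line between called and not called. Among members at 5 RPKM or more, higher calls have RPKM ratios from 3.75 to 73.3, members without a call from 0.782 to 3.07 and lower calls from 0.186 to 0.668. A member that was not called is therefore not shown to be unchanged. Of the 24 called members, 0 had the other direction on the RPKM ratio or on centred folds. The centred fold and the log2 RPKM ratio without added RPKM lie above the deposited fold in these members. Adding 1 RPKM to both values shrinks a ratio but does not change its direction. A higher call could therefore not reverse, and only the 4 lower calls were open to it.

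**Figure D2:**
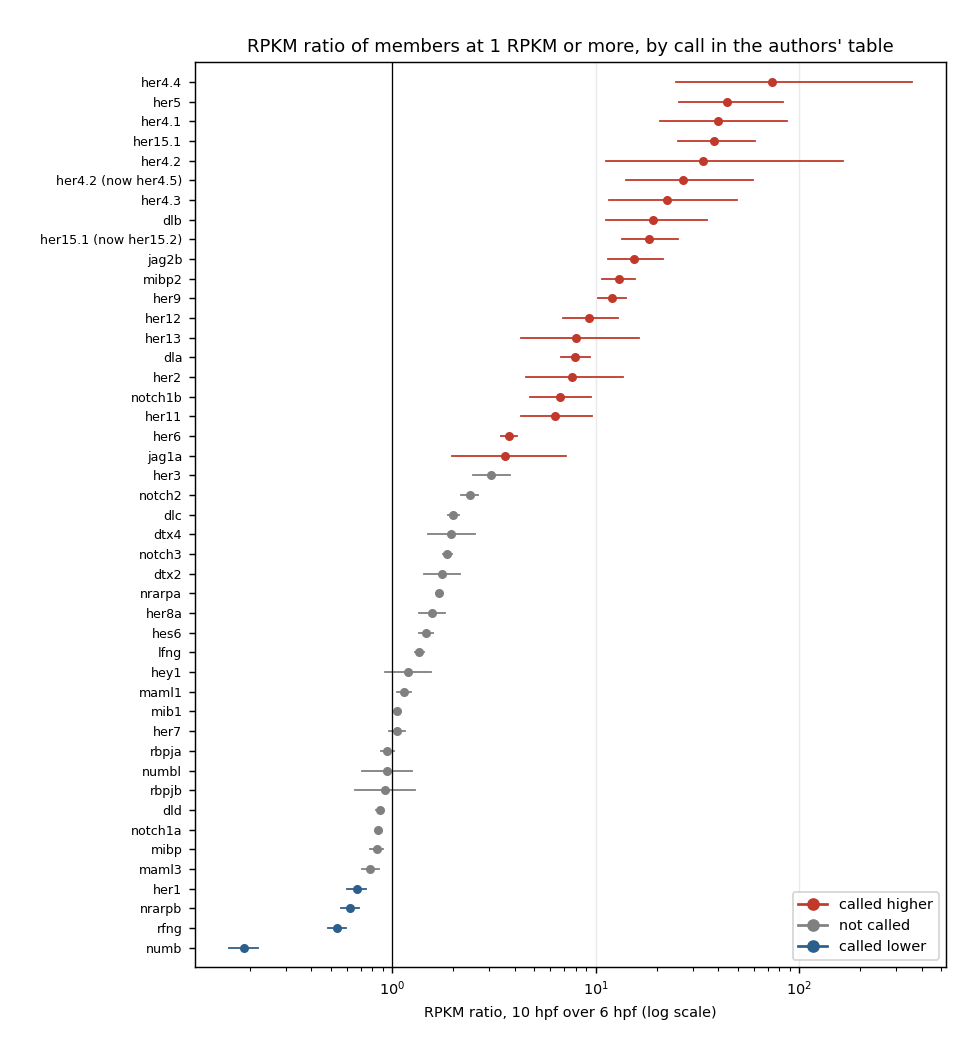
RPKM ratio of 10 hpf over 6 hpf (horizontal axis, log scale) for the 45 members at 1 RPKM or more, with 95% counting intervals as bars and colour for the call in the authors' deposited table. Calls of higher begin at a ratio of 3.60 (jag1a), and a ratio of 3.07 (her3) has no call, whereas a ratio of 0.668 (her1) is called lower.

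Among the ligands, dla, dlb, jag2b and jag1a were called higher, and the 2 most abundant Delta genes and the 3 scarcest ligands were not called. The genes dld and dlc encode Deltas that act in the segmentation clock, where both are needed for regular somites. For dld the level was 53.9 RPKM at 10 hpf and 61.7 RPKM at 6 hpf, a ratio of 0.874 (95% counting interval 0.836 to 0.915). For dlc it was 42.0 RPKM at 10 hpf and 21.0 RPKM at 6 hpf, a ratio of 1.99 (1.87 to 2.13). The level of dld was thus 1.28 times that of dlc at 10 hpf and 2.93 times at 6 hpf.

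The other Delta genes of this family, dla and dlb, are known from lateral inhibition in the neural plate, where cells that become neurons show Delta to their neighbours. Levels in whole embryos do not assign any Delta gene to a single tissue. Both dla and dlb rose. The level of dla was 19.7 RPKM at 10 hpf and 2.48 RPKM at 6 hpf, a ratio of 7.96 (6.79 to 9.38). The level of dlb was 5.08 RPKM at 10 hpf and 0.266 RPKM at 6 hpf, a ratio of 19.1 (11.2 to 35.3) that rests on as few as 14 reads at 6 hpf. Together dlc and dld made up 73.0% of the summed ligand level at 10 hpf and 94.8% at 6 hpf.

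Jagged ligands were scarce at both stages, with 10.4 RPKM summed over 4 genes at 10 hpf and 1.76 RPKM at 6 hpf. The gene jag2b rose to 6.90 RPKM at 10 hpf, against 0.445 RPKM at 6 hpf (ratio 15.5, 11.5 to 21.4). The gene jag1a rose to 2.89 RPKM at 10 hpf, against 0.802 RPKM at 6 hpf (ratio 3.60, 1.96 to 7.12). Neither jag1b (0.548 and 0.505 RPKM) nor jag2a (0.0745 and 0.00679 RPKM) was called, and the 6 hpf value of jag2a may be a single read. The endothelial ligand gene dll4 stood at 0.176 RPKM at 10 hpf and was listed at 0 at 6 hpf, without a call.

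The receptor genes were present from 6 hpf on, and the 3 abundant ones were not called. The level of notch1a was 35.9 RPKM at 10 hpf and 42.0 RPKM at 6 hpf (ratio 0.853, 0.828 to 0.879). The level of notch3 was 34.5 RPKM at 10 hpf and 18.5 RPKM at 6 hpf (ratio 1.87, 1.78 to 1.96). These 2 receptors stood close together at 10 hpf, where notch1a was at 1.04 times the level of notch3, and apart at 6 hpf, where it was at 2.27 times. The level of notch2 was 7.53 RPKM at 10 hpf and 3.13 RPKM at 6 hpf (ratio 2.41, 2.18 to 2.66). The receptor called higher was notch1b, the duplicate of notch1a, at 1.35 RPKM at 10 hpf and 0.203 RPKM at 6 hpf (ratio 6.67, 4.79 to 9.54). It made up 1.71% of the summed receptor level at 10 hpf and 0.317% at 6 hpf.

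**Figure D3:**
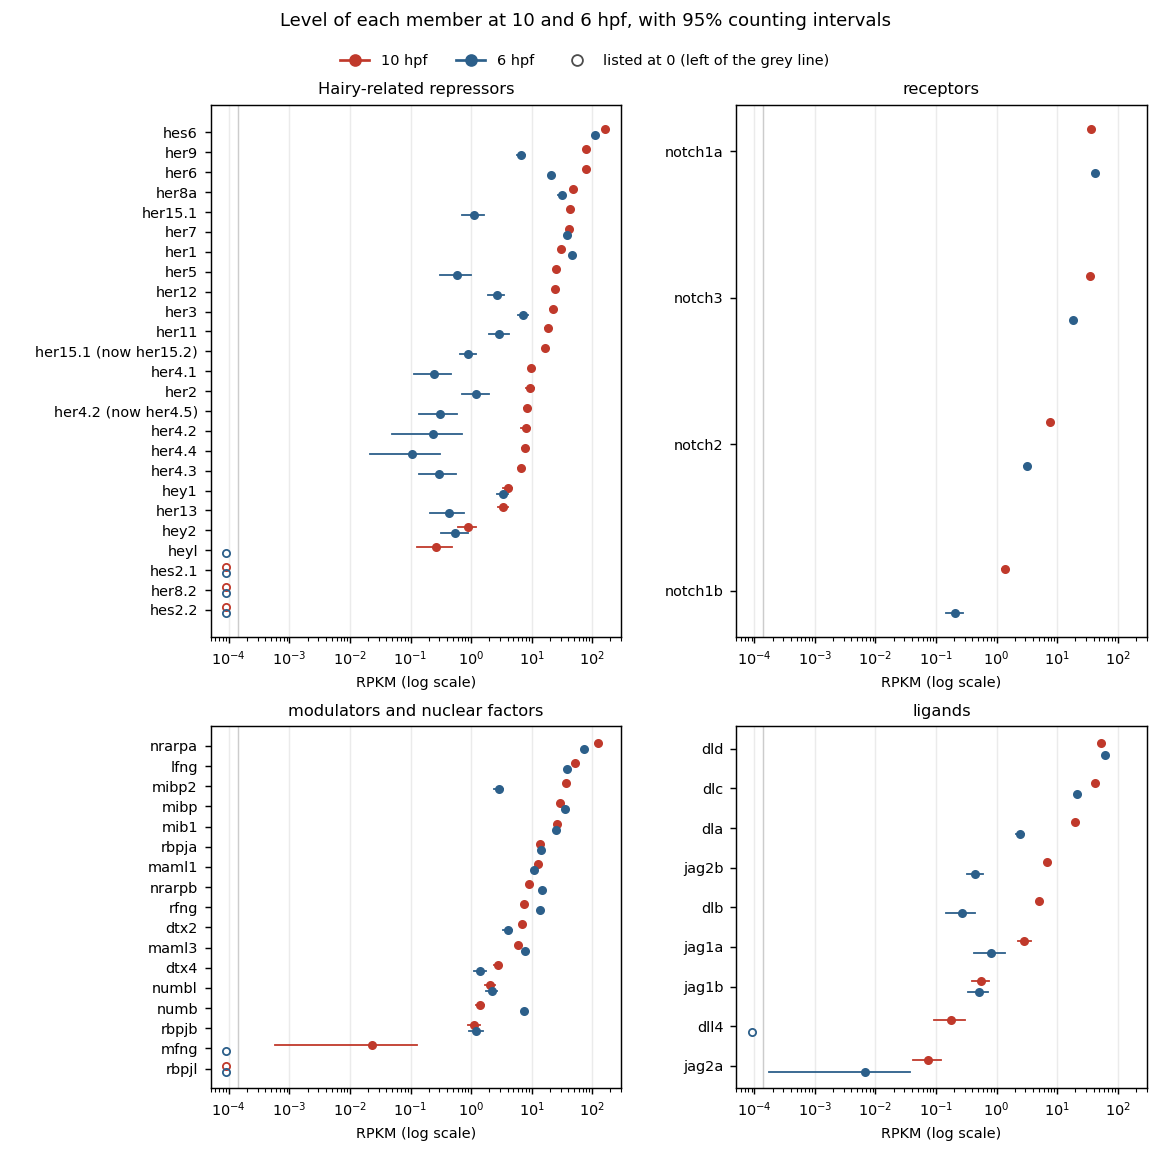
RPKM (horizontal axis, log scale) of each of the 55 members at 10 hpf (red) and 6 hpf (blue), in a panel per role, with 95% counting intervals as bars and open circles for values listed at 0. In the repressor panel the 6 hpf points of the her4 and her15 copies lie between 0.106 and 1.11 RPKM, and their 10 hpf points between 6.64 and 42.3 RPKM.

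The make-up of the Hairy-related repressor group differed between the stages. Summed over the 25 genes, their level was 647 RPKM at 10 hpf and 275 RPKM at 6 hpf, a ratio of 2.35. At 10 hpf 18 of them reached 5 RPKM, and at 6 hpf 7 did. The 4 genes that were most abundant at 6 hpf (hes6, her1, her7 and her8a) made up 43.6% of the sum at 10 hpf and 82.0% at 6 hpf. Of these 4, 0 were called higher. They were picked by their 6 hpf level, and that choice itself favours a smaller share at 10 hpf. The 3 genes most abundant at 10 hpf (hes6, her9 and her6) made up 49.2% of the sum at 10 hpf and 49.7% at 6 hpf.

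**Figure D4:**
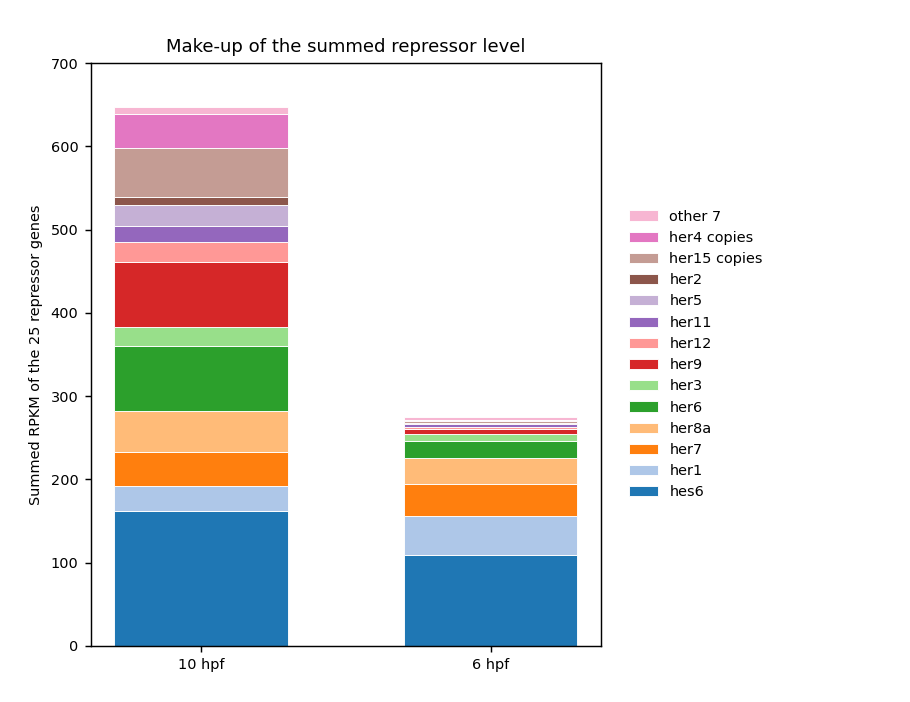
Summed RPKM of the 25 Hairy-related repressor genes (vertical axis) at 10 hpf (left bar) and 6 hpf (right bar), divided by gene or group of copies. The bar is 647 RPKM high at 10 hpf and 275 RPKM at 6 hpf, and the blocks of hes6, her1, her7 and her8a at the foot fill 43.6% and 82.0% of it.

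The segmentation repressors her1, her7 and hes6 were already abundant at 6 hpf, whereas her12 (described below), also linked to segmentation, was at 2.63 RPKM. The remaining her genes were not sorted by a role in segmentation. The genes her1 and her7 encode the oscillating repressors at the core of the clock, and hes6 encodes a steadily expressed partner with which they can dimerize. The level of her7 was 41.1 RPKM at 10 hpf and 39.0 RPKM at 6 hpf (ratio 1.05, 0.962 to 1.15), and it was not called. For her1 it was 30.8 RPKM at 10 hpf and 46.1 RPKM at 6 hpf (ratio 0.668, 0.599 to 0.745), a lower call that was not kept once folds had been centred on the median gene. Thus her7 stood at 1.33 times the level of her1 at 10 hpf and at 0.846 times at 6 hpf. The most abundant repressor at both stages was hes6, with 161 RPKM at 10 hpf and 109.6 RPKM at 6 hpf and no call (ratio 1.47, 1.36 to 1.60).

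The her4 and her15 genes are related to Hes5 and known as direct Notch targets in neural progenitors, and the her4 copies had the lowest 6 hpf levels of all called repressors. The 5 her4 copies summed to 40.5 RPKM at 10 hpf and 1.195 RPKM at 6 hpf, a ratio of 33.9. Each copy lay between 6.64 and 9.83 RPKM at 10 hpf and between 0.106 and 0.307 RPKM at 6 hpf, where as few as 3 to 9 reads stand behind a copy. Such copies are nearly identical, and how reads that match several of them were counted is not given in the sources used, so the value of any single copy is uncertain.

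The copy her4.1 was at 9.83 RPKM at 10 hpf and 0.246 RPKM at 6 hpf, and her4.3 at 6.64 and 0.297 RPKM. Of the 2 genes annotated as her4.2, ENSDARG00000056729 (current symbol her4.5) was at 8.28 RPKM at 10 hpf and 0.307 RPKM at 6 hpf, and ENSDARG00000094426 at 8.03 and 0.239 RPKM. Of these copies, her4.4 had the largest ratio, at 7.74 RPKM at 10 hpf and 0.106 RPKM at 6 hpf (ratio 73.3), and its interval of 24.9 to 358 shows how little a count of 3 reads fixes. The 2 genes annotated as her15.1 summed to 58.8 RPKM at 10 hpf and 2.004 RPKM at 6 hpf (ratio 29.3). The first (ENSDARG00000054562) was at 42.3 RPKM at 10 hpf and 1.11 RPKM at 6 hpf, and the second (ENSDARG00000054560, current symbol her15.2) at 16.5 and 0.899 RPKM. All 7 genes of these copies were called higher, and counting each set of copies as 1 gene leaves 15 higher calls among members.

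The genes her6 and her9, which the table of gene names pairs with human HES1 and HES4, were the most abundant of the repressors called higher. The level of her9 was 78.7 RPKM at 10 hpf and 6.56 RPKM at 6 hpf (ratio 11.99, 10.3 to 14.1). The level of her6 was 78.0 RPKM at 10 hpf and 20.8 RPKM at 6 hpf (ratio 3.75, 3.42 to 4.12). At 10 hpf they differed by less than the counting interval of either, and at 6 hpf her6 was 3.17 times as abundant as her9. The pair made up 24.2% of the repressor sum at 10 hpf and 9.93% at 6 hpf.

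Other repressors of the neural plate differed in their calls, although each one named here had a higher RPKM at 10 hpf. The genes her5 and her11 are known for keeping the midbrain-hindbrain boundary zone free of neurons, and both were called higher. The level of her5 was 25.6 RPKM at 10 hpf and 0.577 RPKM at 6 hpf (ratio 44.4, 25.8 to 83.7). The level of her11 was 18.5 RPKM at 10 hpf and 2.93 RPKM at 6 hpf (ratio 6.33, 4.298 to 9.64). The gene her3, an inhibitor of neurogenesis that is known to be repressed rather than activated by Notch signals, had no call at 22.3 RPKM at 10 hpf and 7.28 RPKM at 6 hpf (ratio 3.07, 2.49 to 3.80). There was no call for her8a either, at 48.9 RPKM at 10 hpf and 31.2 RPKM at 6 hpf (ratio 1.56, 1.35 to 1.81).

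The remaining repressors called higher were her12, her2 and her13. The level of her12, a gene of the presomitic mesoderm, was 24.5 RPKM at 10 hpf and 2.63 RPKM at 6 hpf (ratio 9.32, 6.92 to 12.8). The level of her2 was 9.28 RPKM at 10 hpf and 1.22 RPKM at 6 hpf (ratio 7.63, 4.56 to 13.7), and that of her13 was 3.38 RPKM at 10 hpf and 0.424 RPKM at 6 hpf (ratio 7.97, 4.301 to 16.4). The hey genes, known mainly from the heart and vessels, summed to 5.16 RPKM at 10 hpf and 3.92 RPKM at 6 hpf, and none of the 3 (0 higher, 0 lower) was called. The genes hes2.1, hes2.2 and her8.2 were listed at 0 at both stages.

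Many her genes lie next to each other, and neighbours had the same call in some cases and different calls in others. Of the 25 repressors 56.0% were called higher, so many neighbours would share that call in any case. By gene order in the RefSeq annotation of GRCz12tu, a later assembly than the authors' and used here for order only, her12 is followed by the 5 her4 copies with no protein-coding gene between them, and all 6 were called higher. The same holds for her2 with the 2 her15 copies and for her11 with her5. In the adjacent pair her1 and her7, her1 was called lower and her7 was not called. The gene her13 was called higher, while its neighbour her8.2 was listed at 0. Reads may be shared among the her4 copies and among the her15 copies, so neighbours are not independent observations.

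**Figure D5:**
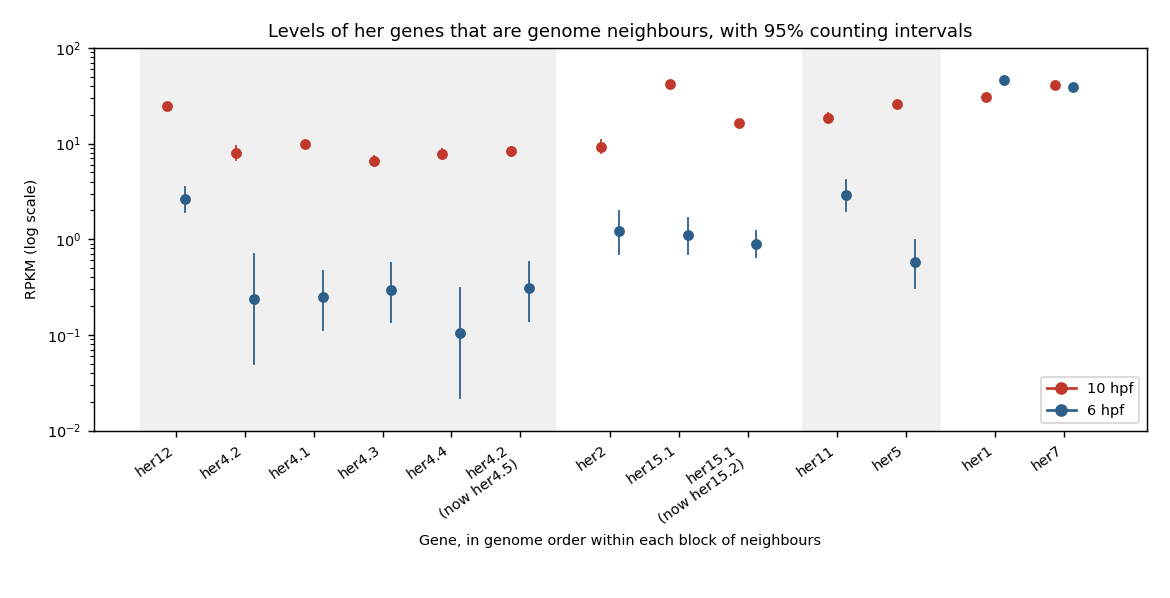
RPKM (vertical axis, log scale) at 10 hpf (red, left) and 6 hpf (blue, right) of her genes that are direct neighbours, in genome order within 4 shaded or plain blocks, with 95% counting intervals as bars. In 3 blocks every gene is higher at 10 hpf, by ratios from 6.33 to 73.3, whereas her1 and her7 have ratios of 0.668 and 1.05.

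Among modulators and nuclear factors, the feedback inhibitor gene nrarpa was the most abundant, and the 3 lower calls were numb, rfng and nrarpb. The gene nrarpa, a Notch target whose product limits the pathway, had 124 RPKM at 10 hpf and 73.3 RPKM at 6 hpf without a call (ratio 1.70, 1.64 to 1.76). Its duplicate nrarpb was called lower, at 9.17 RPKM at 10 hpf and 14.8 RPKM at 6 hpf (ratio 0.620, 0.560 to 0.686), and this call was not kept after centring. The level of nrarpa was 13.6 times that of nrarpb at 10 hpf and 4.95 times at 6 hpf.

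The largest decrease among all members was that of numb, an adaptor gene whose product is known as an inhibitor of Notch from work in Drosophila. It fell to 1.39 RPKM at 10 hpf, against 7.46 RPKM at 6 hpf (ratio 0.186, 0.158 to 0.219). Its relative numbl had no call at 2.07 RPKM at 10 hpf and 2.19 RPKM at 6 hpf (ratio 0.946, 0.714 to 1.26), so numbl was the more abundant of the 2 at 10 hpf, by 1.49 times, and numb at 6 hpf, by 3.403 times. Both numb and rfng kept their lower call after centring.

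Fringe enzymes add sugars to Notch and change which ligands it responds to. The level of lfng was 52.8 RPKM at 10 hpf and 38.8 RPKM at 6 hpf without a call (ratio 1.36, 1.29 to 1.44). In contrast rfng fell to 7.46 RPKM at 10 hpf, against 13.9 RPKM at 6 hpf (ratio 0.536, 0.486 to 0.590). The third fringe gene, mfng, was at 0.0232 RPKM at 10 hpf and listed at 0 at 6 hpf.

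The shared transmission machinery was not called. The level of mib1, the ubiquitin ligase gene whose loss blocks Delta signalling (the mind bomb mutant), was 26.3 RPKM at 10 hpf and 24.8 RPKM at 6 hpf (ratio 1.06, 1.01 to 1.11). For rbpja, a gene of the DNA-binding factor, it was 13.7 RPKM at 10 hpf and 14.5 RPKM at 6 hpf (ratio 0.946, 0.879 to 1.02), and rbpjb lay near 1 RPKM at both stages (1.12 and 1.21 RPKM). The co-activator genes maml1 (12.6 RPKM at 10 hpf and 11.0 RPKM at 6 hpf) and maml3 (6.03 and 7.70 RPKM) and the Deltex ligase gene dtx2 (7.05 and 4.01 RPKM) were also not called. In these 6 genes the ratios ran from 0.782 for maml3 to 1.76 for dtx2.

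The pair taken in by the pattern had different calls. The gene mibp2 was called higher, at 37.0 RPKM at 10 hpf and 2.85 RPKM at 6 hpf (ratio 13.0, 10.8 to 15.7). The gene mibp was not called, at 29.8 RPKM at 10 hpf and 35.4 RPKM at 6 hpf. The 14 members below 5 RPKM and without a call at 1 RPKM or more reach at most 4.01 RPKM (hey1 at 10 hpf, against 3.37 RPKM at 6 hpf), and 4 of them are listed at 0 at both stages.

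Other genes of the pathway were taken from lists of known components, and their counts are to be read beside the 16.3% higher and 32.9% lower calls among all genes at 1 RPKM or more. Of 16 measured genes of receptor cleavage, modification and trafficking, 3 were called higher and 2 lower, with 0 of the lower calls kept after centring. The gene adam10b, for a metalloprotease that cuts Notch at the cell surface, rose to 14.8 RPKM at 10 hpf, against 3.15 RPKM at 6 hpf. Its duplicate adam10a was called lower at 18.4 RPKM at 10 hpf and 29.7 RPKM at 6 hpf, as was the endocytic adaptor gene epn2 at 25.6 and 36.0 RPKM. The lysosomal protease gene ctsba had the highest level without a call, 210.0 RPKM at 10 hpf and 128 RPKM at 6 hpf. The other higher calls, named after their values had been seen, were adam17b (1.55 and 0.443 RPKM) and furinb (1.24 and 0.135 RPKM).

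Of 20 nuclear co-factor and turnover genes, 2 were called higher and 7 lower, 5 of them also after centring. These lower counts lie near the background of 32.9% lower calls and 22.8% kept after centring among all genes at 1 RPKM or more, a level that 19 of the 20 reach. The gene snw1, for a splicing factor that also acts as a Notch co-activator, fell to 40.7 RPKM at 10 hpf, against 125 RPKM at 6 hpf. Ubiquitin ligase genes of Notch turnover were also lower, with itchb at 2.42 RPKM at 10 hpf and 7.38 RPKM at 6 hpf and fbxw7 at 6.76 and 12.6 RPKM. The deacetylase gene hdac1 was not called at 277 and 279 RPKM. Among the higher calls, and named after its values had been seen, was the Groucho-type co-repressor gene tle3a (40.7 RPKM at 10 hpf and 12.5 RPKM at 6 hpf). Groucho-type proteins are the known partners through which Hairy-related repressors silence genes.

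Among 9 genes proposed as noncanonical ligands, 1 was called higher and 1 lower. Over all genes the shares were 9.70% higher and 19.8% lower, so these counts do not stand out. Of the 9 genes, 2 reach 1 RPKM. The microfibril gene mfap2 rose to 33.7 RPKM at 10 hpf, against 2.64 RPKM at 6 hpf, and dlk2 fell to 0.0320 RPKM at 10 hpf, against 6.82 RPKM at 6 hpf. A gene annotated as egfl6 (ENSDARG00000098124) had the highest level without a call, at 0.244 RPKM at 10 hpf and 0.834 RPKM at 6 hpf.

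Among proneural genes, which Hairy-related repressors are known to hold back, every call was higher, while segmentation genes that act with such repressors moved in both directions. Of 15 proneural and early neuron genes, 7 were called higher and 0 lower, against 9.70% and 19.8% of all genes. This list shares neurog1 and elavl3 with the neural plate markers above. The 15 genes, of which 6 reach 1 RPKM, summed to 57.0 RPKM at 10 hpf and 1.60 RPKM at 6 hpf. The leading ones were neurog1 (30.3 RPKM at 10 hpf and 0.0422 RPKM at 6 hpf) and olig2 (11.1 and 0.140 RPKM), while insm1b was not called at 2.46 and 1.04 RPKM. Of 14 segmentation genes that work with the clock, 6 were called higher and 4 lower. This list shares tbx6, meox1, tbx16 and msgn1 with the presomitic and paraxial mesoderm markers above. Among all genes at 1 RPKM or more, a level all 14 reach, 16.3% were called higher and 32.9% lower. After centring, 22.8% were still called lower. The lower counts of the segmentation genes lie near these shares. Here mespbb rose to 10.2 RPKM at 10 hpf, against 0.821 RPKM at 6 hpf, and the other leading genes were tbx6 (79.7 and 1.18 RPKM) and meox1 (22.6 and 0.0425 RPKM), with cdx4 uncalled at 340.4 and 126 RPKM. The lower calls, named after their values had been seen, were mespab (14.3 RPKM at 10 hpf and 66.9 RPKM at 6 hpf), mespaa (9.36 and 18.2 RPKM), tbx16 (34.4 and 123 RPKM) and pcdh8 (26.9 and 34.0 RPKM), and the first 3 of these were kept after centring.

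Of 11 genes for partners of basic helix-loop-helix proteins, Id proteins and related repressors, 3 were called higher and 4 lower, 3 of these also after centring. The lower counts lie near the 32.9% lower calls and 22.8% kept after centring among all genes at 1 RPKM or more. At that level 16.3% were called higher, and 9 of the 11 genes reach it. The repressor gene bhlhe41 was at 5.97 RPKM at 10 hpf and listed at 0 at 6 hpf. The E-protein gene tcf3a fell to 9.72 RPKM at 10 hpf, against 19.9 RPKM at 6 hpf, and id4 fell to 2.31 RPKM at 10 hpf, against 5.68 RPKM at 6 hpf. The most abundant of the Id genes, id1, was not called at 431 RPKM at 10 hpf and 337 RPKM at 6 hpf. Calls outside the naming rule, given after their values had been seen, were the higher calls of bhlhe40 (3.21 and 0.0210 RPKM) and tcf12 (7.31 and 1.68 RPKM) and the lower calls of tcf3b (37.6 and 71.4 RPKM) and id2a (12.2 and 20.0 RPKM).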

How the data were processed

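Total RNA was extracted with Trizol and made into Illumina libraries, per the labels' protocols, which do not say whether the 10 hpf libraries came from separate clutches. TopHat2 2.1.1 and build GRCz10 were used, per the submitters' processing notes. The sources used here do not name the read counter or the annotation. Per the file headers, the authors deposited RPKM values, 1 per stage, over 2 libraries at 10 hpf. The authors also deposited log2 folds (10 hpf over 6 hpf), a conservative log2 fold (GFOLD, setting 0.01) and an empirical false discovery rate (unit: p-value), per the file headers. With 1 value per stage, no test was made here.

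Read totals were fitted so that RPKM values of 5S rRNA genes fall on whole reads. With them, 99.6% of 1588 sampled genes below 2 RPKM had a gene length that gives whole reads at both stages, against 0.504% with slightly shifted totals. Among 2229 genes sampled at any level the shares were 99.7% and 25.8%, so abundant genes check the totals less strictly. The shortest such length gives the fewest reads and the widest interval (exact Poisson for levels, Clopper-Pearson for ratios). In simulated data of 997 genes it equalled the true length in 71.4%.

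Members and lists were chosen with earlier results of these data known. Every member at 5 RPKM or more, or called at 1 RPKM or more, was named. From each list, up to 3 called genes with the largest fold at 5 RPKM or more and the most abundant gene without a call were named. A lower call was kept after centring where the conservative fold lay below the median deposited fold (−0.50 on the log2 scale) over genes that reach 5 RPKM at either stage; centred medians used genes at 1 RPKM or more (−0.41). Alternatives were other pseudocounts, level minimums, stricter calls, centring, an RPKM ratio as the call and a list without mibp and mibp2. Counting copies as 1 gene was added after the data had been seen. Python 3.11.15, numpy 2.4.6, pandas 2.3.3 and scipy 1.17.1 were used.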

Additional observations from a re-analysis of the deposited data

How the results depend on the processing

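The count of 20 members called higher lay between 15 and 21 under every alternative run. Centring could not lower it, because the median deposited fold is negative and every higher call has a positive conservative fold. The highest false discovery rate among called members was 0.00438, so the stricter limit of 0.01 could remove none and is no check of the count. The 4 lower calls became 2 after centring and 1 with a 2-fold RPKM ratio as the call, and were 4 under the others.

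Medians of the log2 RPKM ratio moved with nearly every setting, in the order all members (0.96), ligands (1.69), receptors (0.92), repressors (2.44) and modulators and nuclear factors (−0.05). They were 0.99, 2.34, 1.07, 3.003 and −0.077 with a pseudocount of 0.1, and 0.62, 0.89, 0.46, 1.32 and −0.023 with a pseudocount of 5. With no level minimum they were 0.63, 0.96, 0.92, 1.86 and 0, and with members at 5 RPKM or more 1.005, 2.27, 0.87, 2.69 and 0.0033, so the last has no direction. The log2 fold as deposited gave 0.41, 1.83, 0.45, 2.40 and −0.64, and centred 0.82, 2.24, 0.86, 2.81 and −0.22. Without its most abundant gene the summed level had a ratio of 3.03 for ligands (1.51 with it), 1.99 for receptors (1.24) and 2.93 for repressors (2.35). Lower minimums or pseudocounts weight genes with few reads, and her4.4 and the her4.2 gene ENSDARG00000094426 rest on as few as 3 reads at 6 hpf.

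No paired analysis was possible because the table holds 1 value per stage, and for the same reason leaving out a 10 hpf library was not run.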

Other observations

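Some genes carry a current symbol that the name pattern would match but an older name in the table, and they were not counted as members. Of these, dtx3la (listed as si:ch73-78o10.1), a Deltex-related ligase gene, was at 14.1 RPKM at 10 hpf and 9.81 RPKM at 6 hpf without a call, higher than the Deltex member dtx2 at either stage. A Deltex gene listed as DTX4 (1 of many) was at 2.90 RPKM at 10 hpf and 3.48 RPKM at 6 hpf. Genes whose current symbols are MIB2 (CABZ01090216.1) and DTX1 (CABZ01004876.1) were listed at 0 at both stages.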
